A study of Rattus norvegicus with 8 samples.

Results

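Expression of the Wnt pathway's extracellular and feedback components was examined in rat cultures kept with or without FGF9, a secreted fibroblast growth factor that signals through FGF receptor kinases. The genes were those named Wnt, Fzd, Sfrp or Dkk with a number, together with a fixed list of Wnt antagonists, co-receptors, agonists, scaffolds, nuclear factors and feedback inhibitors. Of 14506 genes measured on features with a single gene symbol, 48 met this description. They comprised 17 Wnt ligands, 8 Frizzled receptors, the co-receptors Lrp5 and Lrp6, 3 R-spondin agonists, 11 secreted antagonists, Axin1 and Axin2, 3 nuclear factors, and Nkd1 and Nkd2. Wnt7a, Wnt11, Fzd7, Fzd10 and Tcf7l2 were not analysed here, for want of a feature with their symbol alone.

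The samples were Sprague-Dawley rat spinal cord cultures, set up from E15.5 embryos, in which axons become myelinated. FGF9 cultures received human FGF9 at 100 ng/ml and control cultures were untreated. Collection at 24 h or at 10 days gave 4 groups of 2 arrays. The source field names neurosphere-derived astrocytes, whereas titles and cell type call every sample a myelinating culture, and markers of neurons, astrocytes and oligodendrocytes were all present: Snap25 lay between 11.76 and 13.78, Gfap between 11.24 and 13.24 and Mbp between 10.78 and 12.67 on the log2 scale of the arrays. Values are log2 expression values throughout, and a difference is FGF9 minus control unless another is named. In such bulk RNA, fewer cells of a type and less RNA per cell cannot be told apart. Nothing in the labels says that replicates were separate cultures, so a p-value here reflects only how far these few arrays spread, and their number limits the precision.

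Wnt ligands are lipid-modified proteins that bind Frizzled receptors. With the co-receptors Lrp5 or Lrp6 they stabilise β-catenin, which then acts with the nuclear factors of the TCF/LEF family; other Frizzled signals act on planar cell polarity. R-spondins raise Frizzled levels at the membrane, Sfrp proteins, Frzb and Wif1 bind Wnt ligands, Dkk1 blocks the co-receptors, and Notum removes the lipid from Wnt. Axin2, Nkd1, Notum and Lef1 are themselves β-catenin targets in many tissues, and in oligodendrocyte precursors sustained β-catenin signalling delays differentiation.

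Same-numbered FGF9 and control arrays of a time share an array name prefix and are called a pair. The prefix was CL1 for pair 1 and CL2 for pair 2 at 24 h, and CL2 for pair 1 and AA1 for pair 2 at 10 days; the labels do not say what it marks. Both AA1 arrays stood apart, with correlations across features of 0.897 to 0.940 with the other 6 arrays, which correlated among themselves at 0.962 to 0.989. The mean of 7 fibroblast and meningeal markers was 6.47 to 6.56 on the AA1 arrays and 9.02 to 10.13 on the other 6. Of 11 FGF-ERK feedback genes, which FGF receptor signalling switches on, 11 were higher with FGF9 at each time, by a median of 0.78 at 24 h and 1.24 at 10 days; 10 of them rose at 10 days in the fit with the pair as a block, in which 3.12% of all genes were called higher. None of the 11 passed at 10 days without the block, or at 24 h in either fit.

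Promoter sequence was examined for the TCF/LEF core CTTTGAT on both strands, since several of the genes are known β-catenin targets. RefSeq promoter windows (GRCr8, 250 bases before to 50 after the gene's start) were found for 32 of the 48 genes, and the core was in 3 of them, those of Axin2, Nkd1 and Tcf7, which is 9.38%. It was in 3.63% of all 33469 windows. The windows of Axin2 and Nkd1 are shown because both genes were lower with FGF9 at 24 h and higher at 10 days in both pairs, as described further on. They were thus picked by their expression, and a link between core and expression was not tested. The pairs of Tcf7 disagreed in sign at both times. The 250 bases before each start are given 5′ to 3′, the last of them being position -1. Capitals mark the core, which begins at position -132 in Axin2 and -141 in Nkd1, and in Tcf7 at -4.
Axin2, chr10:94398535-94398784, plus strand: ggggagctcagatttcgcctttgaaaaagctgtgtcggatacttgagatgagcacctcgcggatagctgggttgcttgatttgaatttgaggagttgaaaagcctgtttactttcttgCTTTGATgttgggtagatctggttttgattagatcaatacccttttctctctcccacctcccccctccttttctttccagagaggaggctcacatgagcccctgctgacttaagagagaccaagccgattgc
Nkd1, chr19:34722847-34723096, minus strand: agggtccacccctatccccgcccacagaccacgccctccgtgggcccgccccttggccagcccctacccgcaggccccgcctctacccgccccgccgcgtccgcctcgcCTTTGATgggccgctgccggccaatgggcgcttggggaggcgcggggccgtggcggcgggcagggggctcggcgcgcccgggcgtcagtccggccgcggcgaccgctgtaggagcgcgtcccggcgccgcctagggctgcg
A match is a description of these letters, not evidence of binding.

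At 24 h 0 of 48 passed an adjusted p of 0.05 in limma over all genes, without or with the pair as a block, as did 0.0% of all genes. At an unadjusted p under 0.05 there were 1 of 48 without the block (1.93% of all genes) and 6 with it (12.4%). At 10 days 0 of 48 passed without the block, again with 0.0% of all genes, and 2 rose and 0 fell with it, which is 4.17% of the 48 beside 3.12% of all genes called higher and 3.31% called lower (6.43% in all). Unadjusted, 3 of 48 were under 0.05 without the block at 10 days (5.63% of all genes) and 13 with it (24.0%). The share of Wnt pathway genes called was thus near that of all genes. The median difference of the 48 genes was -0.02 at 24 h and 0.00 at 10 days, beside medians of 0.00 and 0.02 over all genes. Among genes above a filter on dim features, which kept 26 of the 48, it was -0.20 at 24 h and 0.20 at 10 days, beside -0.04 and 0.02 over all genes kept. That filter keeps a gene if any 1 group mean exceeds 6.67, the median of all features. Some genes thus entered only through the group where they were high, so the filtered medians cannot be read as a change of direction. In both pairs of 24 h, 16 of 48 were higher (33.3%, against 31.8% of all genes) and 16 lower (33.3%, against 32.9%). In both of 10 days, 16 were higher (33.3%, against 33.2%) and 14 lower (29.2%, against 30.0%). By groups that do not overlap, 10 of 48 were higher (20.8%, against 17.5% of all genes) and 8 lower (16.7%, against 14.5%) with FGF9 at 24 h. At 10 days 8 were higher (16.7%, against 14.9%) and 8 lower (16.7%, against 11.3%).

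**Figure D1:**
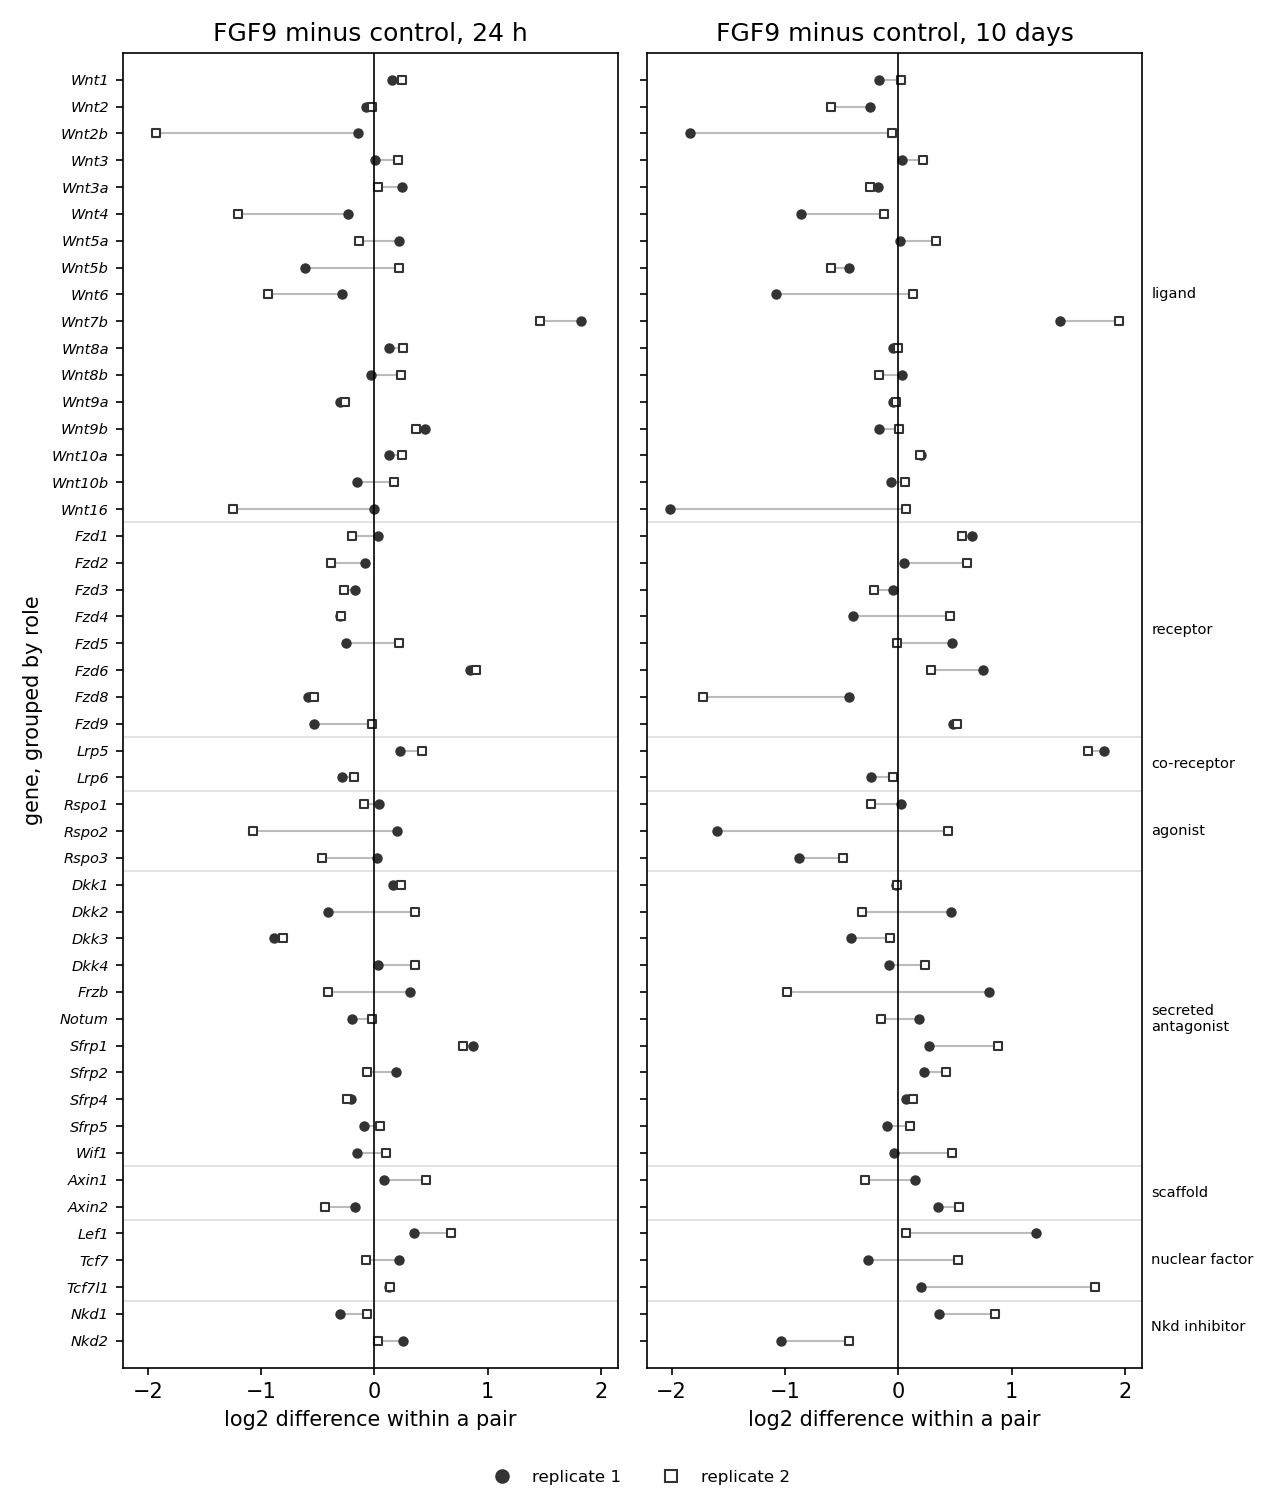
FGF9 minus control log2 difference (x axis) of each of the 48 genes within replicate 1 (filled circles) and replicate 2 (open squares), at 24 h (left) and 10 days (right), grouped by role. Wnt7b lies furthest to the right at 24 h, with 1.82 and 1.46, and Wnt7b and Lrp5 do at 10 days, while Wnt2b, Wnt16 and Rspo2 are far to the left in 1 pair of each time only.

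The 2 genes that rose were the ligand Wnt7b and the co-receptor Lrp5. Wnt7b is made by neural progenitors and neurons of the central nervous system and acts there, with the cofactors Reck and Gpr124, on the endothelium among other targets. At 24 h Wnt7b stood at 9.81 and 8.95 in FGF9 cultures, against 7.98 and 7.48 in controls. At 10 days it stood at 8.97 and 9.31 in FGF9 cultures, against 7.55 and 7.37 in controls. At both times both FGF9 arrays were above both control arrays. The difference was 1.64 ± 0.34 at 24 h (SE, n = 2 per group; ± 0.18 with the block), a 3.12-fold difference, and 1.69 ± 0.34 at 10 days (± 0.18 with the block), or 3.22-fold. In limma Wnt7b passed at 10 days with the block (adjusted p = 0.0173) and not without it (adjusted p = 0.459). At 24 h it did not pass (adjusted p = 0.122 with the block, 1.0 without). The effects at the 2 times differed by 0.05, with a 95% interval of -0.59 to 0.68 in the blocked fit.

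Lrp5, which with Frizzled receives canonical Wnt signals, had its larger difference at 10 days. At 24 h its values were 7.98 and 7.44 in FGF9 cultures, against 7.76 and 7.02 in controls. These groups overlapped, although the FGF9 array was the higher one in each pair. At 10 days they were 9.21 and 10.10 in FGF9 cultures, against 7.39 and 8.43 in controls, with no overlap. The difference was 0.32 ± 0.49 at 24 h (± 0.14 with the block; adjusted p = 0.422 with it) and 1.74 ± 0.49 at 10 days (± 0.14 with the block), a 3.35-fold difference. At 10 days Lrp5 rose with the block (adjusted p = 0.0124) and did not pass without it (adjusted p = 0.665). The times also differ in prefix, with only CL2 at both, so time and prefix cannot be fully told apart in a change of effect. In the CL2 pairs alone Lrp5 differed by 0.42 at 24 h and 1.81 at 10 days. Over all pairs the 10-day effect exceeded the 24 h effect by 1.42, with a blocked 95% interval of 0.95 to 1.90. This interval is not adjusted over genes. After adjustment over all genes the change of effect did not pass (adjusted p = 0.156 with the block), where 0.0483% of all genes did. It was in limma 0 of 48 in either fit, with 2 of 48 under an unadjusted 0.05 without the block (1.9% of all genes) and 8 with it (12.9%). Lrp6, the paralogous co-receptor, was the lower one with FGF9 in all 4 pairs. Its 10-day values were 9.42 and 9.41 in FGF9 cultures, against 9.66 and 9.45 in controls, a difference of -0.14 with a blocked 95% interval of -0.48 to 0.19. At 24 h Lrp6 stood at 9.43 and 9.45 in FGF9 cultures and at 9.72 and 9.62 in controls (difference -0.23 ± 0.17).

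Cell type markers moved along the same arrays. At 24 h the mean of 9 astrocyte markers was 10.22 and 9.97 in FGF9 cultures, against 10.67 and 10.95 in controls, with 8 of 9 lower and none passing. The 7 mature oligodendrocyte markers were all lower, with a mean of 10.79 and 8.74 in FGF9 cultures, against 11.47 and 9.35 in controls, and none passed. At 10 days the mean of 9 neuron markers was 9.85 and 10.73 in FGF9 cultures, against 10.77 and 11.70 in controls, with 9 of 9 lower. That of 5 oligodendrocyte precursor markers was 9.39 and 9.86 in FGF9 cultures, against 8.84 and 8.76 in controls, with 4 of 5 higher. Pdgfra was the lower one, at 10.69 and 10.40 in FGF9 cultures, against 11.21 and 10.41 in controls. The mean of 5 cell cycle genes was 9.82 and 8.54 in FGF9 cultures, against 8.75 and 7.03 in controls, at 24 h, and 7.46 and 7.41 against 7.26 and 5.86 at 10 days. At 10 days the astrocyte mean was 11.07 and 11.19 in FGF9 cultures, against 11.20 and 10.80 in controls, with 5 of 9 higher. That of mature oligodendrocyte markers was 10.76 and 9.06, against 10.87 and 9.28, with 3 of 7 higher. At 24 h the neuron mean was 10.13 and 11.05 in FGF9 cultures, against 10.27 and 11.32 in controls, with 9 of 9 lower. That of precursor markers was 9.19 and 9.18, against 9.17 and 9.16, with 3 of 5 higher. The part of such cells, or of the cell cycle, in the values of Wnt7b and Lrp5 was not tested.

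**Figure D2:**
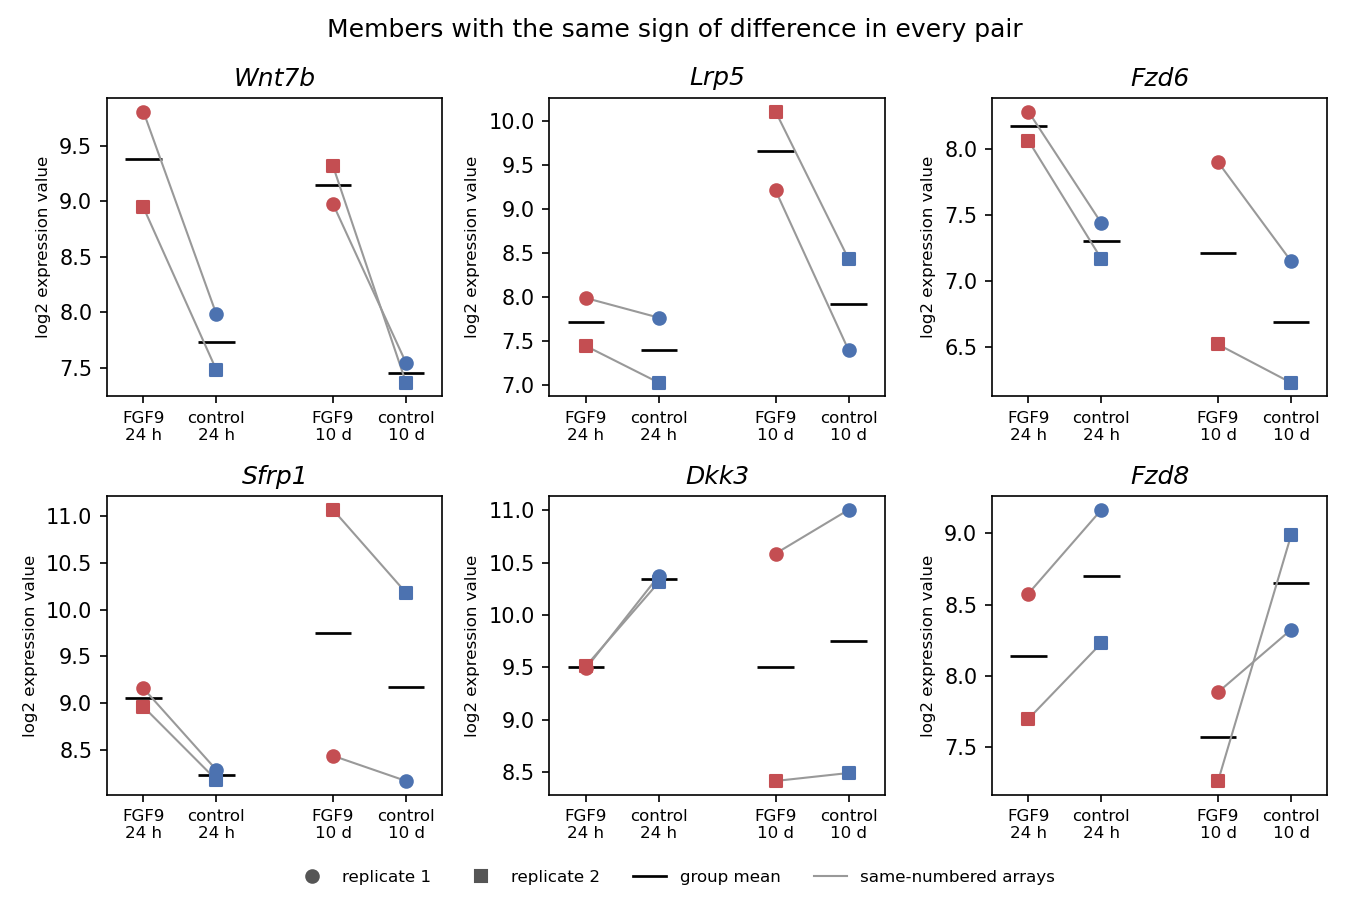
Log2 expression value (y axis) of 6 genes on each array, FGF9 (red) left of control (blue) at 24 h and 10 days; circles are replicate 1, squares replicate 2, grey lines join same-numbered arrays and black bars are group means. Wnt7b, Lrp5, Fzd6 and Sfrp1 are higher and Dkk3 and Fzd8 lower with FGF9 in all 4 pairs, and the 10-day replicates of Sfrp1 and Dkk3 lie far apart.

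Several genes stood on the same side in every pair without passing at either time. Of the 48, 8 were higher in all 4 pairs, Wnt7b and Lrp5 among them (16.7%, against 14.2% of all genes), and 8 lower in all 4 (16.7%, against 14.1%). The receptor Fzd6, best known for planar cell polarity, stood at 8.28 and 8.06 in FGF9 cultures, against 7.44 and 7.17 in controls, at 24 h. At 10 days it stood at 7.90 and 6.52 in FGF9 cultures, against 7.15 and 6.23 in controls. The groups were apart at 24 h (difference 0.87 ± 0.50) and overlapped at 10 days (0.52 ± 0.50). The Wnt-binding antagonist Sfrp1 was at 9.16 and 8.96 in FGF9 cultures, against 8.29 and 8.18 in controls, at 24 h (difference 0.82 ± 0.95; ± 0.18 with the block). At 10 days the pairs were further apart than the groups, with 8.44 and 11.06 in FGF9 cultures and 8.17 and 10.18 in controls. Dkk3, a divergent Dickkopf protein, was on the low side, at 9.49 and 9.51 in FGF9 cultures, against 10.38 and 10.31 in controls, at 24 h. Its difference was -0.84 ± 0.96 there (± 0.15 with the block), and both FGF9 arrays were under both controls. At 10 days Dkk3 was at 10.59 and 8.42 in FGF9 cultures and 11.00 and 8.49 in controls, so that the pairs differed by more than the groups.

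With the block, the adjusted p at 24 h was 0.151 for Fzd6, 0.198 for Sfrp1 and 0.141 for Dkk3. Once pair 1 or pair 2 of 10 days was dropped from the blocked fit, 4 of the 48 passed at 24 h (1.63% of all genes). That fit has 1 residual degree of freedom, from the 24 h pairs. These were Wnt7b (adjusted p = 0.0231), Fzd6 (0.0392), Sfrp1 (0.0418) and Dkk3 (0.041). An average of the FGF9 effects over both times, a contrast chosen after seeing the data, called 5 of 48 with the block (6.48% of all genes) and 0 without it (4 at an unadjusted p under 0.05, against 5.31% of all genes). Wnt7b (1.67 ± 0.13, SE with the block), Lrp5 (1.03 ± 0.10), Fzd6 (0.69 ± 0.11) and Sfrp1 (0.70 ± 0.13) were higher and Dkk3 (-0.54 ± 0.10) was lower. Their adjusted p lay between 0.012 and 0.0403. In this contrast 3.09% of all genes were called higher and 3.39% lower.

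Among the other Frizzled receptors, Fzd8 stood at 8.58 and 7.70 in FGF9 cultures, against 9.17 and 8.23 in controls, at 24 h. At 10 days it stood at 7.89 and 7.27 in FGF9 cultures, against 8.32 and 8.98 in controls. The 10-day groups did not overlap, and the difference of -1.08 ± 0.47 (± 0.29 with the block, adjusted p = 0.0874) was unequal between pairs, at -0.44 and -1.72. Fzd1 differed by 0.61 ± 0.33 at 10 days (± 0.14 with the block, adjusted p = 0.0574), with 8.51 and 9.12 in FGF9 cultures and 7.86 and 8.56 in controls. It passed with the block when array medians were subtracted (adjusted p = 0.05) or dim genes left out (adjusted p = 0.0481). At 24 h Fzd1 differed by only -0.08 ± 0.33. Fzd3, which guides axons with the Celsr cadherins, differed by -0.22 ± 0.25 at 24 h and -0.13 ± 0.25 at 10 days. On group means 1 of 8 Frizzled genes was higher at 24 h and 6 of 8 at 10 days, with medians of -0.23 and 0.28. Of all 14506 genes, 7214 and 7717 were higher at these times. The pairs disagreed in sign at 24 h for Fzd1 (0.03 and -0.19) and Fzd5 (-0.25 and 0.22). At 10 days they disagreed for Fzd4 (-0.40 and 0.45) and Fzd5 (0.47 and -0.01). None of the 8 passed at either time in the fits over all 14506 genes on the values as deposited.

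Ligands other than Wnt7b included no gene that passed. On group means 4 of 17 were higher and 13 lower at 10 days, with a median of -0.07, and 10 were higher and 7 lower at 24 h. Of all 14506 genes, 7717 were higher at 10 days and 7214 at 24 h. The differences ran from -1.04 for Wnt2b to 1.64 for Wnt7b at 24 h, and from -0.97 for Wnt16 to 1.69 for Wnt7b at 10 days. Only 5 of the 17 ligands, Wnt4, Wnt5a, Wnt6, Wnt7b and Wnt16, had a group mean above 6.67, the median of all features. By the same measure 8 of 8 Frizzled receptors and both co-receptors were above it, as were 9487 of all 14506 genes. Wnt4, Wnt6 and Wnt16 were above it only in controls, and Fzd9 only in FGF9 cultures at 10 days (7.04). The control means of Wnt16, 6.86 at 24 h and 6.92 at 10 days, each rest on the CL2 array. Arrays of this kind compress folds near background. Wnt9b was at 6.63 and 6.15 in FGF9 cultures, against 6.19 and 5.78 in controls, at 24 h (difference 0.41 ± 0.27; blocked adjusted p = 0.329). Wnt5b was at 5.88 and 5.04 in FGF9 cultures, against 6.31 and 5.64 in controls, at 10 days (difference -0.51 ± 0.48). Wnt5a, a mainly non-canonical ligand, differed by 0.04 ± 0.31 at 24 h and 0.17 ± 0.31 at 10 days.

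Wnt16, Wnt2b, Wnt6 and the R-spondin Rspo2 had their highest values on the CL2 controls. Rspo2, which potentiates Wnt signals, stood at 8.06 and 7.81 on the CL2 FGF9 arrays of 24 h and 10 days, against 9.13 and 9.41 on the CL2 controls. Wnt16 stood at 6.80 and 6.46 on the CL2 FGF9 arrays, against 8.05 and 8.48 on the CL2 controls. Wnt2b stood at 5.18 and 4.88 on the CL2 FGF9 arrays, against 7.10 and 6.72 on the CL2 controls. All were lower with FGF9 in both CL2 pairs, and so was Wnt6, at 6.56 and 6.30 with FGF9, against 7.50 and 7.38 in controls. The differences in the CL2 pairs were -1.07 and -1.60 for Rspo2, -1.25 and -2.02 for Wnt16, -1.92 and -1.84 for Wnt2b, and -0.94 and -1.08 for Wnt6. Wnt4 followed at -1.20 and -0.86.

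In the CL1 and AA1 pairs the same genes differed by 0.20 and 0.44 (Rspo2), 0.00 and 0.07 (Wnt16), -0.15 and -0.06 (Wnt2b), -0.29 and 0.13 (Wnt6) and -0.23 and -0.13 (Wnt4). Their levels there were lower than on the CL2 controls, except for Wnt4 in CL1. Rspo2 was at 6.35 and 5.95 on the CL1 and AA1 FGF9 arrays, against 6.16 and 5.51 on their controls. Wnt16 was at 5.67 and 5.43 on these FGF9 arrays, against 5.67 and 5.36 on the controls. FGF9 was thus lower by over 1 log2 unit in both CL2 pairs for 3 of 48 genes, Rspo2, Wnt16 and Wnt2b (6.25%), and for 0.421% of all genes. Whether the FGF9 effect differed between prefixes was not tested, and over all pairs none of these genes passed, with a blocked adjusted p of 0.325 for Wnt16 and 0.565 for Rspo2 at 10 days. The genes were singled out by prefix after their values were seen, so the share of 6.25% cannot be read as an enrichment. Higher with FGF9 by over 1 log2 unit in both CL2 pairs was 1 of 48, Wnt7b (2.08%, against 0.489% of all genes). Fibroblast and meningeal markers also moved along these arrays, with a mean over the 7 measured of 8 listed markers of 9.38 and 9.53 on the CL2 FGF9 arrays and 9.70 and 10.13 on the CL2 controls. On the CL1 arrays, where Rspo2 and Wnt16 were low, that mean was 9.02 with FGF9 and 9.52 in the control. Endothelial markers had a mean of 6.65 and 5.89 on the CL2 FGF9 arrays and 6.47 and 6.39 on the CL2 controls, against 5.23 to 5.88 on the other 4 arrays, with Pecam1, Cldn5 and Tek under the feature median on every array. Single markers went both ways, as seen after their values were known. Kdr was at 7.48 and 6.07 on the CL2 FGF9 arrays, against 9.01 and 8.95 on the CL2 controls, and the meningeal marker Slc6a13 at 9.79 and 8.33 against 10.40 and 11.09. Flt1 was at 8.76 and 7.25 on the CL2 FGF9 arrays, against 6.49 and 6.39 on the CL2 controls. Of the fibroblast and meningeal markers, Lum was at 6.62 and 8.22 on the CL2 FGF9 arrays, against 6.84 and 7.26. Dcn was at 7.17 and 8.96, against 7.84 and 8.66. Both were thus higher with FGF9 in the 10-day CL2 pair, and the other measured markers of that list were lower in both CL2 pairs. The part of such cells in these values was not tested.

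**Figure D3:**
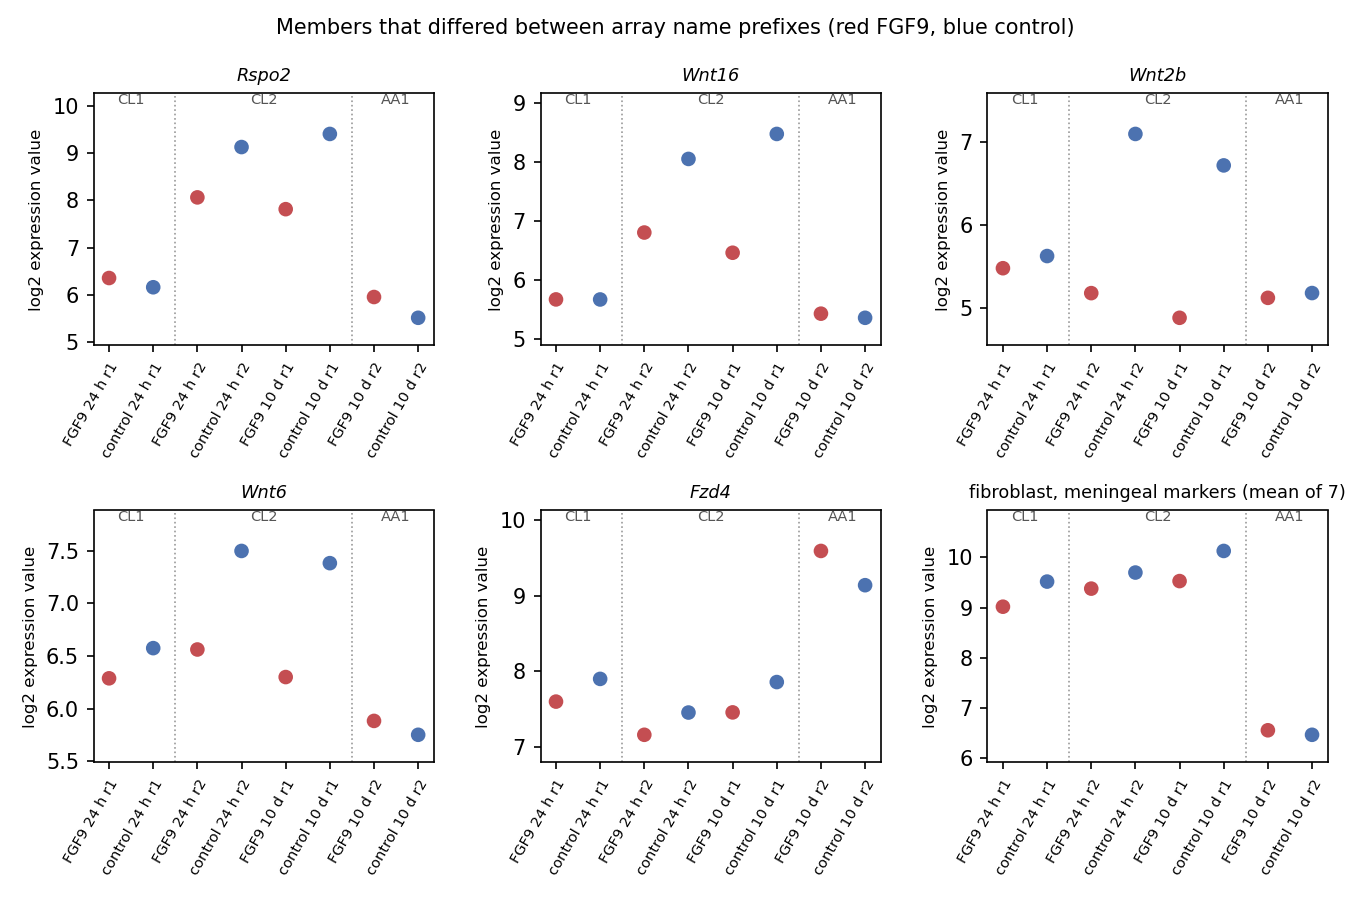
Log2 expression value (y axis) of Rspo2, Wnt16, Wnt2b, Wnt6 and Fzd4 and the mean of 7 fibroblast and meningeal markers on each of the 8 arrays, with dotted lines between array name prefixes, FGF9 in red left of control in blue, and r for replicate. Rspo2, Wnt16, Wnt2b and Wnt6 are highest on the 2 CL2 controls and lower on the CL2 FGF9 arrays; Fzd4 is highest and the markers lowest on the AA1 arrays.

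Other genes separated the AA1 arrays from the rest at 10 days. Fzd4, the receptor of the ligand norrin as well as of Wnt7 signals in brain vessels, was at 9.59 with FGF9 and 9.14 in the control on AA1 arrays, and at 7.16 to 7.90 on the other 6. Sfrp1 was at 11.06 with FGF9 and 10.18 in the control on AA1 arrays, against 8.17 to 9.16 elsewhere. Control replicates were more than 1 log2 unit apart for 6 of 48 genes at 24 h (12.5%, against 6.54% of all genes) and for 9 at 10 days (18.8%, against 19.4%). At each time they were further apart than the mean FGF9 difference for 33 of 48 genes (68.8%), as for 65.8% of all genes at 24 h and 70.0% at 10 days. Between the times, 10 days against 24 h in control cultures, 0 of 48 genes passed in limma without the block (0.0% of all genes) or with it (0.00689%). For this contrast the block is the prefix. The blocked estimate takes the change in level from the CL2 pairs, CL2 being the only prefix present at both times. It corrects that change for the FGF9 differences, which are averaged over all pairs of a time. Unadjusted, 0 of 48 were under 0.05 without the block (2.86% of all genes) and 6 with it (13.7%).

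R-spondins other than Rspo2 were dim. Rspo3 was at 5.30 and 5.46 in FGF9 cultures, against 6.17 and 5.95 in controls, at 10 days, with no overlap. The difference was -0.68 ± 0.30 (± 0.18 with the block, adjusted p = 0.0835). On group means all 3 R-spondins were lower at both times, and none passed. Only Rspo3 at 10 days was lower in both pairs. The pairs disagreed in sign for all 3 at 24 h, and for Rspo1 and Rspo2 at 10 days. The antagonists that bind Wnt or its co-receptors, apart from Sfrp1 and Dkk3, had mean differences of -0.22 to 0.20 at 24 h and -0.09 to 0.32 at 10 days. Pairs could disagree within such a mean: Frzb differed by 0.803 and -0.985 in the 10-day pairs, and Dkk2 by 0.465 and -0.322. Of all 11 secreted antagonists, 4 were higher on group means at 24 h and 8 at 10 days, with medians of -0.02 and 0.07. Of all 14506 genes, 7214 and 7717 were higher at these times.

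The feedback genes were examined as readouts of β-catenin signalling within the cultures. Axin2, the scaffold that restrains β-catenin and whose promoter is shown above, was at 6.47 and 6.09 in FGF9 cultures, against 6.64 and 6.53 in controls, at 24 h. At 10 days Axin2 was at 6.68 and 6.81 in FGF9 cultures, against 6.33 and 6.28 in controls. The groups did not overlap at either time, with FGF9 lower at 24 h (-0.30 ± 0.20) and higher at 10 days (0.44 ± 0.20, blocked adjusted p = 0.133). Axin2 was not bright, with most of its values, 6.09 to 6.81, under the median of all features (6.67). Nkd1, which binds Dishevelled and dampens the signal, was at 8.28 and 7.99 in FGF9 cultures, against 8.59 and 8.05 in controls, at 24 h. At 10 days Nkd1 was at 8.47 and 8.61 in FGF9 cultures, against 8.11 and 7.76 in controls, a difference of 0.61 ± 0.26 (± 0.17 with the block, adjusted p = 0.0964). It too was lower in both pairs at 24 h (-0.18 ± 0.26) and higher in both at 10 days.

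Its paralogue Nkd2 went the other way. At 10 days Nkd2 was at 5.76 and 5.91 in FGF9 cultures, against 6.79 and 6.35 in controls, a difference of -0.73 ± 0.23 (± 0.18 with the block, adjusted p = 0.0722). At 24 h Nkd2 differed by 0.15 ± 0.23. Most Nkd2 values, 5.76 to 6.79, were likewise under the median of all features. Notum was dim on every array, at 4.72 to 5.38, and differed by -0.11 ± 0.22 at 24 h and 0.02 ± 0.22 at 10 days. None of these 4 genes passed in either fit with all arrays.

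**Figure D4:**
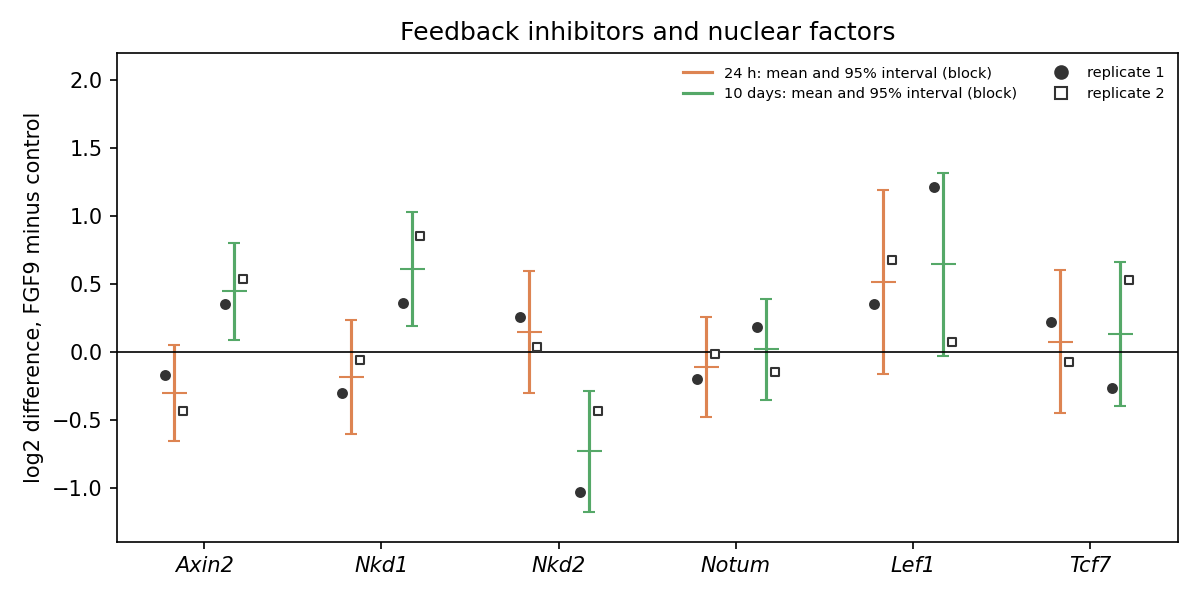
FGF9 minus control log2 difference (y axis) of 6 genes at 24 h (orange) and 10 days (green); circles and squares are the pairs of replicates 1 and 2, and bars give the mean with its 95% interval from the blocked fit, not adjusted over genes. Axin2 and Nkd1 lie below 0 at 24 h and above 0 at 10 days in both pairs, and Nkd2 does the opposite.

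On group means the nuclear factors were higher at both times in 3 of 3 cases, without a call. Lef1, which activates targets together with β-catenin, was at 6.11 and 6.68 in FGF9 cultures, against 5.76 and 6.01 in controls, at 24 h (difference 0.51 ± 0.62). At 10 days Lef1 was at 7.14 and 5.27 in FGF9 cultures, against 5.93 and 5.20 in controls. The 10-day difference of 0.64 ± 0.62 came from pair 1, at 1.22, beside 0.07 in pair 2. Tcf7l1, mostly a repressor, showed the reverse, with 7.79 and 7.72 in FGF9 cultures and 7.59 and 5.99 in controls at 10 days. Its differences were 0.20 in pair 1 and 1.73 in pair 2. Tcf7 differed by 0.07 ± 0.36 at 24 h and 0.13 ± 0.36 at 10 days. Its pairs disagreed in sign at both times, at 0.22 and -0.07 at 24 h and at -0.26 and 0.53 at 10 days. Axin1, the constitutive scaffold, differed by 0.27 ± 0.22 at 24 h and -0.07 ± 0.22 at 10 days.

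Further pathway genes were read from 2 lists chosen with earlier results of these data known. Of 50 other components measured, 0 passed at 24 h, and at 10 days 0 rose and 2 fell with the block (0 without it), beside the 3.31% of all genes called lower. These were Celsr3, a planar polarity cadherin of growing axons (-0.77 ± 0.84; ± 0.14 with the block, adjusted p = 0.038), and Gpc3, a cell surface glypican (-0.75 ± 1.23; ± 0.15 with the block, adjusted p = 0.0487). The median of the list was -0.16 at 24 h, with 15 of 50 higher on group means, and 0.00 at 10 days, with 25 of 50 higher. Of all 14506 genes, 7214 and 7717 were higher at these times. Markers of neurons, the cells in which Celsr3 acts, fell in 8 of 9 cases at 10 days with the block (0 of 9 without it), by a median of -0.93; their part in the Celsr3 value was not tested.

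Of 24 measured genes known as β-catenin targets in other tissues, 8 of which are among the 48, 2 rose at 10 days with the block, in which 3.12% of all genes were called higher, and 0 without it. These were Ccnd1, cyclin D1 (2.89 ± 0.38; blocked adjusted p = 0.0195), and Cd44, a hyaluronan receptor (2.38 ± 0.76; ± 0.24 with the block, adjusted p = 0.0173). Ccnd1 is also a target of FGF-ERK signalling. Cd44 stood at 12.17 and 10.62 in FGF9 cultures, against 10.04 and 8.00 in controls. Higher with FGF9 on group means were 10 of the 24 at 24 h (median -0.14) and 18 at 10 days (median 0.16). Of all 14506 genes, 7214 and 7717 were higher at these times. The targets other than Ccnd1 and Cd44 did not pass at either time. Rnf43, a target that removes Frizzled from the membrane, was at 5.71 and 5.64 in FGF9 cultures, against 6.26 and 6.13 in controls, at 24 h, and at 6.57 and 6.35 against 6.27 and 5.61 at 10 days. It was thus lower at 24 h (-0.52 ± 0.26) and higher at 10 days (0.52 ± 0.26) in both pairs, with no call at either time. Axin2, Nkd1, Ccn1 and Nrcam among the targets showed this order too, as did 7.8% of all genes. Lef1, Ccnd1, Myc, Bambi, Cd44, Jun and Vcan were instead higher in all 4 pairs, as were 14.2% of all genes, and Dkk1 showed the opposite order. Rnf43 was picked after its values were seen, and lay under the median of all features on every array.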

How the data were processed

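RNA of 8 samples was hybridised to 8 whole-transcript rat arrays (Affymetrix). The deposited table holds 1 log2 value per feature and array; the log2 scale was read from the values, and Partek 6.5 and GCRMA are named, per the submitters' processing notes, with order and further steps not given in the sources used here. Values were used as deposited. Of 29214 features, 15310 had 1 gene symbol and were used; for a gene with several, the feature with the highest mean was taken (527 genes, 1 of the 48).

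Differences were fitted over all 14506 genes with limma 3.58.1 in R 4.3.3 (lmFit, eBayes, 1 mean per group, two-sided, leaving 4 residual degrees of freedom), and p-values were adjusted by Benjamini-Hochberg. The same fit with the pair as a fixed block (entered as the array name prefix, which gives the same FGF9 differences and SE) has 2 residual degrees of freedom; it leaves FGF9 differences as they are and changes their SE. The pairing comes from the replicate numbers in the titles: deviations of same-numbered arrays from their group means had a correlation over genes of 0.757 (24 h) and 0.819 (10 days). The fits were tested on simulated data. Genes named with values per array were those that passed, the 6 largest rises and falls per time with 1 sign in both pairs, the gene of highest mean in each role, and Axin2, Lef1, Nkd1, Notum, Lrp5 and Lrp6; array values of Wnt16, Fzd4 and Rnf43, and the 10-day ones of Fzd6, Sfrp1 and Wnt6, were added after they were seen. The genes and lists were chosen with earlier results of these data known. Alternatives were the block (fixed, random), leaving out arrays or pairs, 2 normalizations, a filter on dim genes and another feature rule; those that pair normalization, filter or feature rule with the block, and the average over both times, were chosen after seeing the data.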

Additional observations from a re-analysis of the deposited data

Results flagged for a closer look

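For 9 of the 48 genes, both pairs moved one way at 24 h and both the opposite way at 10 days. The first 5 were lower with FGF9 at 24 h and higher at 10 days (10.4%, against 7.8% of all genes), and the change of effect, 10 days minus 24 h, was 0.75 for Axin2, 0.79 for Nkd1, 0.78 for Fzd9, 0.56 for Fzd2 and 0.32 for Sfrp4. The other 4 did the opposite (8.33%, against 5.75% of all genes), with changes of -0.88 for Nkd2, -0.35 for Wnt3a, -0.21 for Dkk1 and -0.21 for Wnt8a. The change was tested in limma and passed for none of the 9 after adjustment over all genes, with a blocked adjusted p of 0.26 for Axin2, 0.279 for Nkd2, 0.286 for Fzd9 and 0.29 for Nkd1 and between 0.433 and 0.688 for the rest. Dkk1 and Wnt8a differed by under 0.30 in every pair. The times also differ in prefix, with only CL2 at both, so time and prefix cannot be fully told apart in these changes.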

How the results depend on the processing

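For FGF9 at 10 days, 0 of 48 genes passed without the replicate block under each normalization, filter and feature rule run, and 2 passed with it fixed or random, after quantile normalization or with the mean of all features of a gene. It was 3 with array medians subtracted (6.63% of all genes) or dim features left out (1140 of 9487 genes), each with the block, and 0 to 6 over the fits that leave out an array or a pair. The blocked fit called 6 without pair 1 of 10 days (Fzd8, Lrp5, Nkd1, Sfrp1, Tcf7l1 and Wnt7b; 10.4% of all genes) and 4 without pair 2 (Lef1, Lrp5, Nkd2 and Wnt7b; 3.92%). Each 10-day arm is then 1 array, assumed to vary like the 24 h pairs, which alone give the 1 residual degree of freedom, so these are calls on a single pair. Wnt7b and Lrp5 were called at 10 days in every blocked fit run on the named genes, with an adjusted p of 0.00693 to 0.028. The count was 0 to 4 at 24 h and 0 to 2 (Lrp5 and Tcf7l1, without pair 1 of 10 days, again on a single 10-day pair; 2.22% of all genes) for the change of effect when arrays or pairs were left out. The blocked control contrast between times called 0 without the CL1 or the AA1 pair, and has no value without either CL2 pair, since no prefix then spans both times. The average over both times called 0 genes, and 5 with the block. With dim features left out, which keeps 26 of the 48 genes, their median was -0.20 at 24 h and 0.20 at 10 days. That filter reads the group means themselves, so these medians cannot be read as a change of direction. When arrays or pairs were left out, the median of the 48 was -0.037 to 0.074 at 24 h (0.005 with the block and without pair 2 of 24 h). At 10 days it was then -0.086 to 0.105. Of 38 named differences, 11 turned sign in some fit, most of them in fits that leave out an array and so unbalance the pairs. Their ranges at 24 h were -0.458 to 0.019 (Fzd3), -0.049 to 0.69 (Lrp5), -0.453 to 0.085 (Nkd1), -1.92 to 1.05 (Rspo2) and -0.11 to 0.38 (Tcf7l1). At 10 days they were -0.32 to 0.17 (Axin1), -1.50 to 1.01 (Dkk3), -0.266 to 0.005 (Fzd3), -0.29 to 1.58 (Lef1), -0.24 to 0.27 (Notum) and -2.53 to 1.37 (Rspo2). Leaving out a whole pair with the block gave 0.196 for Rspo2 at 24 h (without pair 2 of that time). At 10 days it gave 0.146 for Axin1 (without pair 2), and -0.15 for Notum and 0.441 for Rspo2 (without pair 1). Notum was -0.005 after quantile normalization with or without the block. The cause of these changes was not tested.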
